A study of Mus musculus and Ochotona curzoniae and Rattus norvegicus with 18 samples.

Results

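The 2-oxoglutarate oxygenases of chromatin and RNA were compared between cultured fibroblasts of the Tibetan pika and of the mouse. The group was a list of 41 enzymes given by gene symbol: histone demethylases and protein hydroxylases with a JmjC domain, the TET enzymes of DNA, FTO and the ALKBH enzymes, the OGFOD enzymes, and 4 hydroxylases of proteins or small metabolites (ASPH, PHYH, BBOX1 and TMLHE). The prolyl hydroxylases of HIF and the collagen hydroxylases of the same superfamily were not among the 41. A gene belonged to the comparison when its symbol stood in both species' tables, which held for 38 of the 41, among 14418 genes found in both. RIOX1 and RIOX2 were listed under these symbols in the mouse only, and TMLHE in the pika only.

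These enzymes use molecular oxygen, 2-oxoglutarate and ferrous iron to hydroxylate their substrate. On a methyl group the hydroxylation releases formaldehyde, which is how JmjC enzymes remove methyl marks from histone lysines and how FTO and ALKBH enzymes remove them from RNA or DNA, while the TET enzymes oxidise 5-methylcytosine in steps. Several members, such as KDM3A, KDM4B and KDM4C, are known from human cells as targets of the hypoxia-inducible factors, and the family has been studied in fibroblasts as one link between oxygen, metabolism and chromatin.

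The RNA came from 3 libraries of pika fibroblasts and 3 libraries of C57BL/6J mouse fibroblasts, out of 12 RNA libraries of 4 species. In both species the cells were grown in DMEM with serum and lysed at 90% confluency, with no drug treatment in the labels, which do not give the animals' age or sex, nor whether a species' replicates were grown from different animals or as different cultures. The p-values thus cover the spread of these libraries alone, and that spread may be technical. Rat and rabbit libraries and the 6 ChIP-seq samples of mouse cells carrying a pika or rat Epas1 gene are not analysed here. With 1 culture condition per species, species, cell source, passage and reference annotation cannot be told apart in any difference below.

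Library totals worked out from the deposited values were between 7703576 and 8481030 reads in pika and between 3663102 and 5758950 in mouse. Among 10 keratinocyte markers found in both tables, 8 were at 0 in every pika library, and the summed level of the 10 was between 1.14 and 1.25 in pika libraries, against 63.5 to 67.8 in mouse libraries, mostly from DSP, a desmosome protein. The keratins KRT5 and KRT14 were at 0 in all pika libraries and averaged 0.220 and 0.210 in mouse, although the labels give the tissue as epidermis. Of 13 fibroblast markers, 2 were called higher in pika (DCN at a log2 fold change of 1.22 and FBLN1 at 1.76), 4 lower (COL3A1 at -5.32, PDGFRA at -3.89, COL6A1 at -1.40 and PDGFRB at -1.04) and 7 were not called, by the rule given below. The collagen COL1A1 averaged 4787 ± 129.9 in pika and 4811 ± 117 in mouse, whereas COL3A1 averaged 22.9 ± 1.44 in pika and 955 ± 16.4 in mouse. The summed level of 5 endothelial markers was between 0.707 and 1.54 in pika and between 32.0 and 39.0 in mouse, nearly all of it from TEK, and that of 4 leukocyte markers was between 14.1 and 15.2 in pika and between 31.3 and 41.6 in mouse. For 4 melanocyte markers the sum was between 68.1 and 78.5 in pika and between 54.8 and 58.3 in mouse. PMEL, a melanosome protein, was called higher (31.6 ± 2.80 in pika and 4.97 ± 2.15 in mouse). The mouse value of PMEL rested on 15 reads in all. PMEL reached the minimum for testing, given below, only in pika, where it is high, so its call is not separate support for the difference. MITF, the largest part of the sum in each species, went the other way at -0.32 and was not called. The mean of MITF was 40.2 ± 2.50 for the pika libraries, against 50.5 ± 2.68 for the mouse libraries. DCT and TYR were too low to be tested. The part of these markers in the results below was not tested.

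Values are rescaled FPKM, that is, fragments per kilobase of gene model and per library total as deposited, rescaled so that the shared genes sum to 1000000 in each library. They are means ± SD over 3 libraries. A log2 fold change sets pika over mouse, taken on log2(value + 1), and understates the change of low genes. A gene was tested when its mean deposited FPKM reached 1 in at least 1 species, and called when limma gave a Benjamini-Hochberg adjusted p under 0.05, over 10348 tested genes, with a log2 fold change of at least 1 in size. Being bulk RNA, the values cannot tell fewer cells that express a gene from less RNA per cell.

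Of the 41 members, 35 were tested, 3 were too low and 3 stood in 1 table only. Of the 35, 34 reached the minimum in both species and OGFOD3 only in pika. By the call rule 6 members were higher in pika (JMJD6, JMJD1C, HSPBAP1, ALKBH4, OGFOD3 and PHYH), 4 were lower (JMJD8, KDM6B, KDM7A and ALKBH3) and 25 were not called. The 10 calls were 28.6% of the members, against 52.2% of all tested genes, 28.7% higher and 23.5% lower. The median size of the log2 fold change was 0.69 among the members and 1.06 among all tested genes, and the signed median was 0.30 among the members and 0.21 among all tested genes. Without the minimum on fold change, 16 members had a positive and 12 a negative difference with limma's adjusted p under 0.05, as did 88.6% of all tested genes, 49.4% positive and 39.2% negative. Without rescaling of the libraries the median of all tested genes was 1.29 and 23 members were called higher and 1 lower, against 58.3% and 10.7% of all tested genes. On that scale 84.5% of all calls and 95.8% of the members' calls were on the higher side, against 55.0% and 60.0% with rescaling. The members were set beside all genes as a description, with no test of the list.

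**Figure D1:**
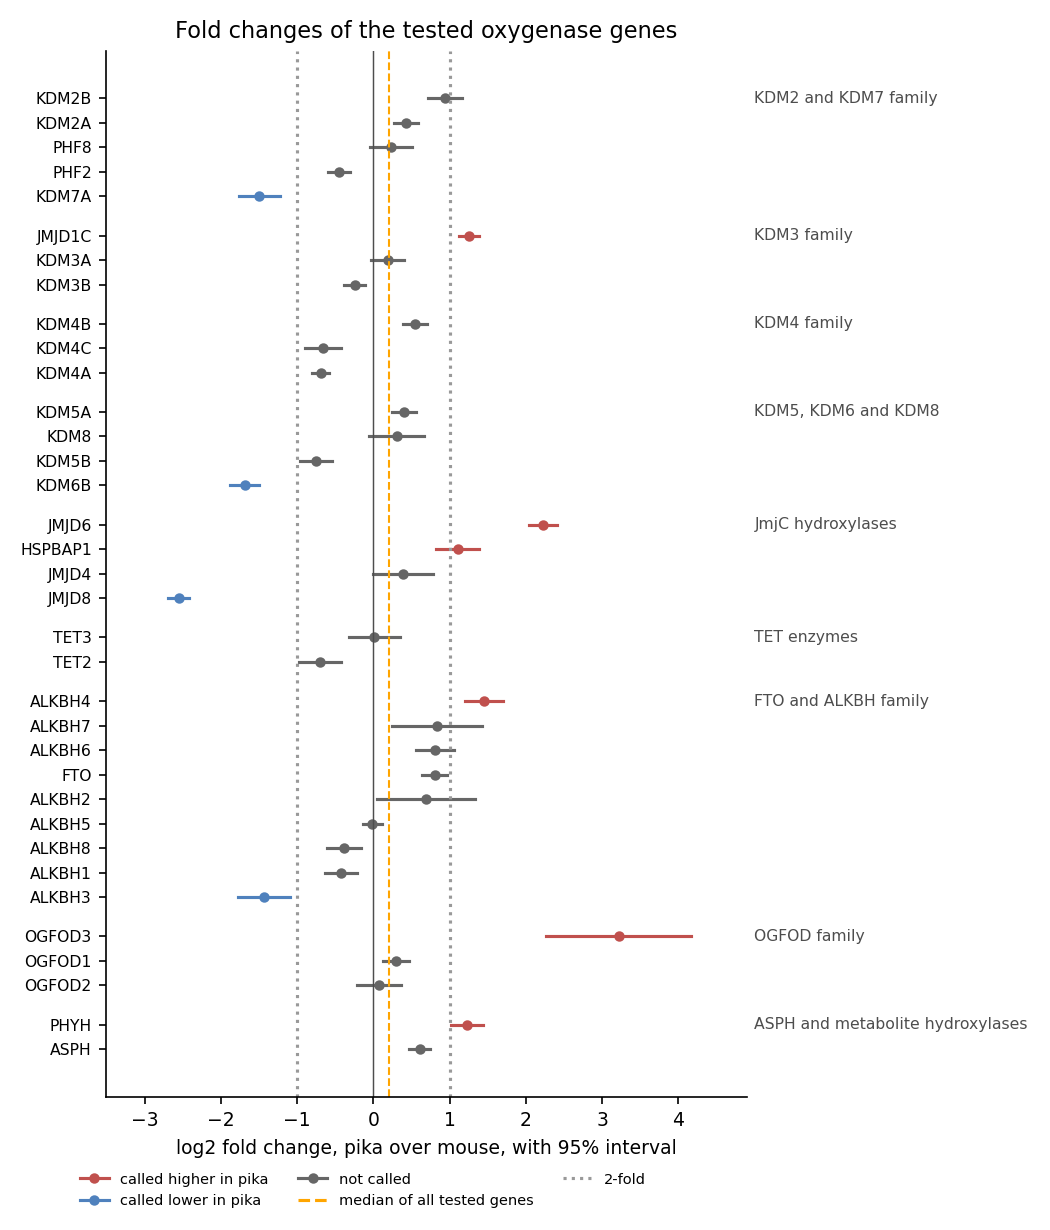
Log2 fold change of rescaled FPKM, pika over mouse (horizontal axis), with its 95% interval from limma, for the 35 tested members grouped by family; colour marks the call, dotted lines 2-fold and the dashed line the median of all tested genes (0.21). JMJD6 at 2.22 and OGFOD3 at 3.22 lie farthest to the right, JMJD8 at -2.55 farthest to the left, and 25 members were not called.

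Protein hydroxylases with a JmjC domain held the member with the highest level in pika and the one with the highest level in mouse. JMJD6, a lysyl hydroxylase that acts on splicing factors such as U2AF2, had 211.5, 206.7 and 211.8 rescaled FPKM in the pika libraries, against 39.9, 50.8 and 42.6 in the mouse libraries. Every pika library was far above every mouse library. On average JMJD6 reached 210.0 ± 2.86 in pika and 44.5 ± 5.71 in mouse. The log2 fold change was 2.22 (SE 0.08, limma adjusted p = 6.4e-09). JMJD6 stood at percentile 93.4 of the shared genes in pika and at percentile 70.9 in mouse. The mouse gene lies on chromosome 11 (GRCm38.p6, 116837432 to 116843767), with 3.99% of its span shared with Mettl23.

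JMJD8, a JmjC protein of the endoplasmic reticulum lumen, stood the other way round. It had 18.6, 18.2 and 17.6 rescaled FPKM in the pika libraries, against 110.8, 111.8 and 111.6 in the mouse libraries, groups that did not overlap and that each varied little. Its means of 18.2 ± 0.535 in pika, against 111.4 ± 0.503 in mouse, gave a log2 fold change of -2.55 (SE 0.06, limma adjusted p = 4.4e-10). In the mouse genome the gene lies on chromosome 17 (GRCm38.p6, 25829043 to 25831843), where 43.2% of its span overlaps Stub1, and the sources used here do not say whether the authors counted reads by strand. STUB1, valued only for this overlap and chosen after its values were seen, averaged 174 ± 2.86 in pika and 207 ± 4.24 in mouse. Mouse reads of JMJD8 could therefore include reads of STUB1, and their share was not tested.

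HSPBAP1, a JmjC protein first found as a partner of the small heat shock protein HSP27, had 18.6, 19.6 and 22.6 rescaled FPKM in pika libraries, against 9.54, 9.15 and 7.96 in mouse libraries. The groups were apart, and the log2 fold change of 1.10 (SE 0.12, limma adjusted p = 1.8e-05) was the smallest called one. The call was lost with median-of-ratios scaling (0.94), with a pseudocount of 5 (0.86) and without gene length (0.63). JMJD4, which hydroxylates the translation release factor eRF1, had 9.49, 8.84 and 11.0 in pika and 6.29, 9.36 and 6.22 in mouse. Its groups overlapped through the second mouse library, and its difference of 0.40 missed the threshold (limma adjusted p = 0.055) and had the opposite sign, at -0.97, without gene length.

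**Figure D2:**
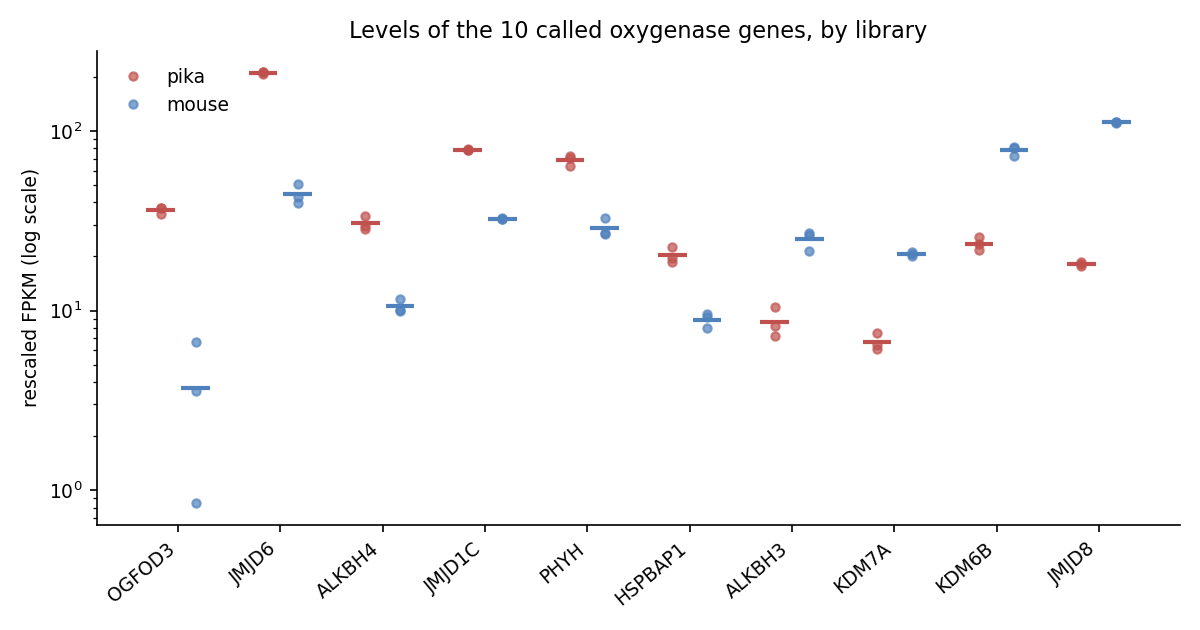
Rescaled FPKM (log axis) of the 10 called members in each library, pika left of mouse for each gene; points are libraries and bars are means. Only OGFOD3 has widely spread mouse libraries, at 3.56, 6.64 and 0.85, while the others form tight groups that do not overlap.

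The KDM3 family removes mono- and dimethyl marks from H3K9. JMJD1C, a relative of KDM3A whose own demethylase activity is debated, was the member of this family with a call. It had 78.5, 78.0 and 79.7 rescaled FPKM in pika libraries and 32.8, 32.3 and 32.2 in mouse libraries, so that the 3 values of each species nearly coincided and the species stood apart. The log2 fold change was 1.25 (SE 0.06, limma adjusted p = 2.7e-08), and the mouse gene lies on chromosome 10 (67096351 to 67256326). KDM3A, the demethylase of the family known to respond to hypoxia, had 39.8, 42.7 and 37.6 in pika and 37.4, 31.0 and 36.9 in mouse, a difference of 0.19 that missed the threshold (limma adjusted p = 0.085). KDM3B had 45.3, 47.3 and 45.0 in pika and 54.8, 55.2 and 53.9 in mouse, giving a log2 fold change of -0.25 whose sign turned to 0.37 without gene length and to 0.98 without rescaling. Within the family, JMJD1C made up 47.8% ± 1.36 of the summed rescaled FPKM in pika and 26.6% ± 0.604 in mouse, and KDM3B made up 27.9% ± 0.264 in pika and 44.7% ± 1.59 in mouse. JMJD1C was thus the leading member in every pika library and KDM3B in every mouse library. Such shares do not depend on the scaling of the libraries, but they do depend on gene length, and an exact 2-sided permutation test of 3 against 3 libraries cannot give a p under 0.1.

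KDM6B and KDM7A were the 2 histone demethylases called lower in pika. KDM6B, which removes trimethyl marks from H3K27, had 21.7, 25.6 and 23.5 rescaled FPKM in pika libraries, against 80.3, 81.2 and 72.6 in mouse libraries. No pika library came near a mouse library. The means were 23.6 ± 1.92 in pika and 78.0 ± 4.73 in mouse, and the log2 fold change was -1.69 (SE 0.08, limma adjusted p = 4.6e-08). The mouse gene lies on chromosome 11 (69398508 to 69420367). KDM6B stood at percentile 55.0 in pika and 82.1 in mouse.

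KDM7A, a demethylase of dimethylated H3K9 and H3K27, had 6.10, 6.43 and 7.52 rescaled FPKM in pika and 20.0, 21.2 and 20.6 in mouse, with no overlap and a log2 fold change of -1.50 (SE 0.12, limma adjusted p = 1.4e-06). Both KDM6B and KDM7A kept a negative sign under the alternatives tried, but without rescaling of the libraries they were at -0.40 and -0.26 and were no longer called. PHF8, a relative of KDM7A that demethylates H3K9 and H4K20, had 26.6, 21.8 and 24.0 in pika and 19.5, 18.2 and 23.6 in mouse, with overlapping groups and limma adjusted p = 0.098. PHF2, an H3K9 demethylase, had 36.9, 39.6 and 37.6 in pika and 51.0, 53.4 and 52.6 in mouse. Its log2 fold change of -0.45 turned to 0.93 without gene length and to 0.78 without rescaling. By the recovered lengths, PHF2 was the member whose mouse gene model was shortest relative to the pika one, at 0.779 times its length. Recovered reads and length of a gene may both be too low by a common factor. Whether this held for PHF2 was not tested, and it would move the value without gene length. Among these 3 enzymes KDM7A made up 9.70% ± 1.07 of the summed level in pika and 22.1% ± 0.783 in mouse, and PHF8 made up 35.1% ± 3.06 in pika and 21.9% ± 2.42 in mouse.

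KDM2A and KDM2B demethylate H3K36 and bind unmethylated CpG islands. KDM2B, which also brings a Polycomb complex to such islands, was the uncalled member closest to the fold minimum. It had 20.4, 21.3 and 21.0 rescaled FPKM in pika and 10.7, 10.3 and 10.2 in mouse. The groups were far apart and the log2 fold change was 0.94 (SE 0.10, limma adjusted p = 1.1e-05). KDM2A had 60.1, 58.1 and 63.8 in pika and 42.1, 46.7 and 46.2 in mouse, giving a log2 fold change of 0.42 that turned to -0.49 without gene length.

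KDM4A, KDM4B and KDM4C remove trimethyl marks from H3K9 and H3K36. None of the 3 was called, but their shares of the KDM4 family stood apart between the species. KDM4A had 61.5, 60.4 and 59.8 rescaled FPKM in pika and 98.7, 100.4 and 96.3 in mouse (difference on the log2 scale -0.69, limma adjusted p = 6.4e-07). KDM4B had 44.1, 46.7 and 43.9 in pika and 29.9, 31.4 and 29.9 in mouse (0.55, limma adjusted p = 4.7e-05). KDM4C had 18.8, 16.8 and 19.3 in pika and 28.0, 32.6 and 27.9 in mouse (-0.66, limma adjusted p = 0.00018). The species' libraries did not overlap in these genes, a state not counted over all tested genes and so not particular to them. Without a fold minimum, 88.6% of all tested genes had an adjusted p from limma under 0.05. KDM4B made up 36.3% ± 1.22 of the family's level in pika and 19.1% ± 0.163 in mouse, whereas KDM4A made up 48.9% ± 0.451 in pika and 62.1% ± 0.859 in mouse and led the family in both species. KDM4D, a family member known from the testis, was at 0 in all pika libraries and at 0.65, 0 and 0.39 in the mouse libraries, which held 3 reads in all, and it was not tested. Without rescaling KDM4A was at 0.57 and KDM4C at 0.53, and without gene length KDM4B was called at 1.05.

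KDM5A and KDM5B remove methyl marks from H3K4. KDM5A had 49.3, 45.8 and 51.0 rescaled FPKM in pika and 37.7, 34.9 and 37.2 in mouse, giving a log2 fold change of 0.40 that was -0.08 without gene length. KDM5B had 19.7, 20.0 and 18.7 in pika and 35.0, 30.1 and 35.6 in mouse, giving a log2 fold change of -0.75 (limma adjusted p = 4.3e-05) that was -1.41 and called without gene length and 0.45 without rescaling. KDM5A made up 71.4% ± 1.77 of the level of the pair in pika and 52.2% ± 1.34 in mouse. KDM8, known in human cells as an arginyl hydroxylase, had 8.44, 9.31 and 9.05 in pika and 5.85, 6.67 and 8.80 in mouse. One mouse library lay within the pika range, and limma's adjusted p was 0.093.

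**Figure D3:**
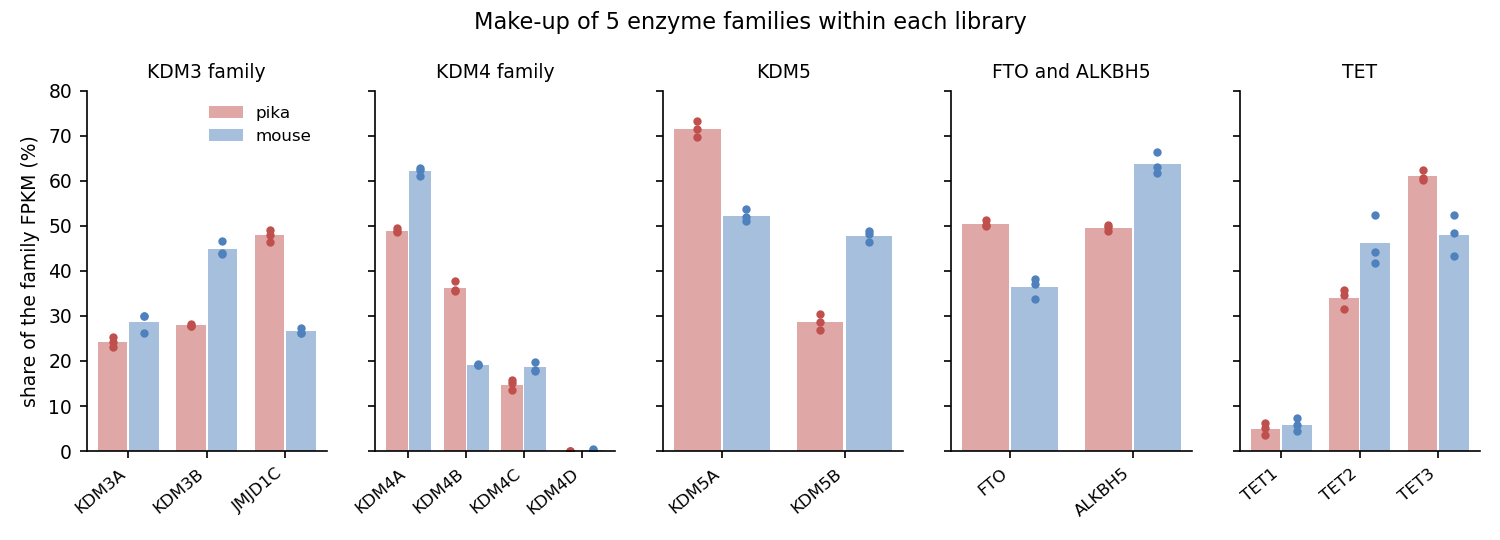
Share of each enzyme in the summed rescaled FPKM of its family (percent), pika left of mouse; points are libraries and bars are means. JMJD1C takes 47.8% of the KDM3 family in pika and 26.6% in mouse, KDM5A 71.4% of its pair in pika and 52.2% in mouse, and FTO 50.5% of the pair with ALKBH5 in pika and 36.3% in mouse.

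No TET enzyme, the oxidases of 5-methylcytosine, was called. TET3 had 14.7, 14.9 and 13.5 rescaled FPKM in pika and 16.0, 11.3 and 15.8 in mouse, with the pika values inside the mouse range (log2 fold change 0.01, limma adjusted p = 0.93). TET2 had 7.39, 8.82 and 7.78 in pika and 12.8, 13.6 and 14.4 in mouse (-0.70, limma adjusted p = 0.00042), and it was -1.18 and called without gene length but 0.40 without rescaling. TET1 was low in both species, with 1.44, 0.88 and 1.14 in pika and 1.77, 1.18 and 2.41 in mouse, and was not tested. TET3 made up 61.1% ± 1.18 of the summed level of the 3 enzymes in pika and 48.0% ± 4.59 in mouse, and TET2 made up 34.0% ± 2.29 in pika and 46.1% ± 5.48 in mouse. In the second mouse library TET2 stood above TET3, unlike in every pika library.

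FTO and ALKBH5 are the known demethylases of N6-methyladenosine (m6A) in mRNA. ALKBH5 had 69.0, 71.4 and 68.5 rescaled FPKM in pika and 69.3, 73.5 and 68.0 in mouse, so that the groups overlapped fully. Its log2 fold change was -0.01, with a 95% interval of -0.14 to 0.11 (limma adjusted p = 0.84), on this scale and with these gene lengths. FTO had 68.8, 75.0 and 69.1 in pika and 43.0, 37.4 and 39.9 in mouse, with no overlap, a log2 fold change of 0.81 (SE 0.07, limma adjusted p = 3.5e-06) and no call. FTO made up 50.5% ± 0.670 of the summed level of the pair in pika and 36.3% ± 2.34 in mouse. The gene model of FTO was 2199 bases long in pika, against 13031 in mouse, and that of ALKBH5 was 1050 in pika, against 5987 in mouse. Without gene length FTO was at -0.69 and ALKBH5 at -1.46, which was called lower, while the difference between the species in the ratio of the pair kept its sign.

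Among the ALKBH enzymes of DNA repair and of other substrates, 1 was called higher and 1 lower. ALKBH4, which removes a methyl mark from actin, had 29.5, 33.5 and 28.6 rescaled FPKM in pika libraries, against 10.1, 11.6 and 9.93 in mouse libraries. All pika libraries were above all mouse libraries, and the log2 fold change was 1.45 (SE 0.11, limma adjusted p = 1.1e-06). ALKBH3, which repairs alkylated single-stranded DNA and RNA, had 8.24, 10.4 and 7.23 in pika, against 26.3, 21.5 and 27.0 in mouse. These groups did not overlap either, with a log2 fold change of -1.44 (SE 0.15, limma adjusted p = 1.1e-05) and one of -0.20, not called, without rescaling.

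The remaining ALKBH enzymes were not called. ALKBH2, the repair enzyme of double-stranded DNA, had 23.1, 21.4 and 25.4 rescaled FPKM in pika and 17.6, 7.79 and 19.9 in mouse (difference on the log2 scale 0.69, limma adjusted p = 0.043). ALKBH7, a mitochondrial protein linked to programmed necrosis, had 26.7, 21.8 and 27.6 in pika and 9.96, 11.3 and 22.6 in mouse (0.84, limma adjusted p = 0.013). In both genes 1 mouse library stood apart from the other two, ALKBH2 rested on 47 and ALKBH7 on 40 mouse reads in all, and ALKBH7 was called higher when the third mouse library was left out (1.18). Without the second mouse library ALKBH2 was at 0.30, and its adjusted p from limma was 0.0827 with trimmed-mean and 0.115 with median-of-ratios scaling. ALKBH6, with no settled substrate, had 20.8, 24.9 and 25.1 in pika and 13.1, 13.4 and 12.4 in mouse (0.81, limma adjusted p = 7.3e-05). ALKBH1, which acts on tRNA, had 17.5, 17.7 and 19.1 in pika and 25.8, 23.3 and 24.9 in mouse, giving a log2 fold change of -0.43. ALKBH8, which modifies the wobble uridine of tRNA, had 14.2, 12.7 and 13.6 in pika and 18.0, 17.7 and 17.9 in mouse, giving a log2 fold change of -0.38. Without rescaling both ALKBH1 and ALKBH8 were at 0.73.

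OGFOD3, an enzyme with no settled substrate, showed the largest fold of the members on the fewest mouse reads of the tested ones. It had 34.4, 37.2 and 37.4 rescaled FPKM in pika libraries, against 3.56, 6.64 and 0.85 in mouse libraries. The pika libraries were close together and the mouse libraries were not, and the 388 recovered reads in pika stood against 5, 6 and 1 in the mouse libraries. The log2 fold change was 3.22 (SE 0.42, limma adjusted p = 5.6e-05), with a 95% interval of 2.27 to 4.17. OGFOD3 passed the filter through pika alone, where it is high, so this p and interval are not separate support for the difference. OGFOD1, which hydroxylates a proline of the ribosomal protein RPS23, had 37.5, 39.2 and 38.1 in pika and 28.9, 31.7 and 32.4 in mouse, giving a log2 fold change of 0.30 that was -0.41 without gene length. OGFOD2 had 18.7, 15.7 and 18.5 in pika and 15.3, 19.2 and 15.7 in mouse, with overlapping groups (0.08, limma adjusted p = 0.58).

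Hydroxylases outside chromatin and RNA ended the list. PHYH, the peroxisomal enzyme that starts the breakdown of phytanic acid, had 70.5, 72.0 and 63.5 rescaled FPKM in pika, against 27.1, 26.8 and 32.7 in mouse. The groups did not overlap, and the log2 fold change was 1.23 (SE 0.09, limma adjusted p = 1.1e-06). ASPH, which hydroxylates EGF-like domains, had 100.4, 88.0 and 90.6 in pika and 60.4, 61.6 and 60.0 in mouse, giving a log2 fold change of 0.61 that turned to -0.86 without gene length. BBOX1, the last enzyme of carnitine synthesis, was at 0 in all 6 libraries.

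By level, JMJD6, ASPH and JMJD1C led the members in pika, each with all its libraries above those of the next. FTO, ALKBH5, PHYH, KDM2A and KDM4A followed with neighbouring ranges that overlapped. In mouse the order was JMJD8, KDM4A, KDM6B and ALKBH5, of which KDM6B and ALKBH5 overlapped. JMJD6 and FTO came at ranks 9 and 10 of 38 there. KDM7A was the lowest tested member in pika, and OGFOD3 was the lowest in mouse.

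Gene length bore on these values, because FPKM divides reads by it. By the recovered lengths, the median ratio of mouse to pika gene model was 2.61 among the 35 members. It was 2.26 among 9946 tested genes with both lengths, and the range among the members was 0.779 to 5.93. Some recovered lengths and reads may both be too low by a common factor, which would move values without gene length. When the reads were compared without gene length, 8 members were called higher and 8 lower, against 52.8% of all tested genes, 25.6% higher and 27.2% lower. JMJD6 (1.41), JMJD1C (1.67), ALKBH4 (1.23), OGFOD3 (3.20) and PHYH (1.28) were still called higher, and JMJD8 (-3.23), KDM7A (-2.01), ALKBH3 (-1.79) and KDM6B (-1.20) still lower, so that 9 of the 10 calls were kept. The share of all genes' calls kept without gene length is not given here. KDM4B, ALKBH2 and ALKBH7 were called higher without gene length but not with it, and KDM5B, TET2, ALKBH5 and ALKBH8 lower. The sign turned for 9 members, all of them uncalled on the scale with gene length. Among the 18 members with a length ratio at or above the median, the median log2 fold change was 0.35 with gene length and -0.78 without it, and among the 17 others it was 0.23 with gene length and 0.60 without it. All tested genes split at the same ratio turned the same way, with medians of 0.54 with gene length and -0.49 without it at or above the ratio, and of 0.0095 with gene length and 0.42 without it below the ratio.

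**Figure D4:**
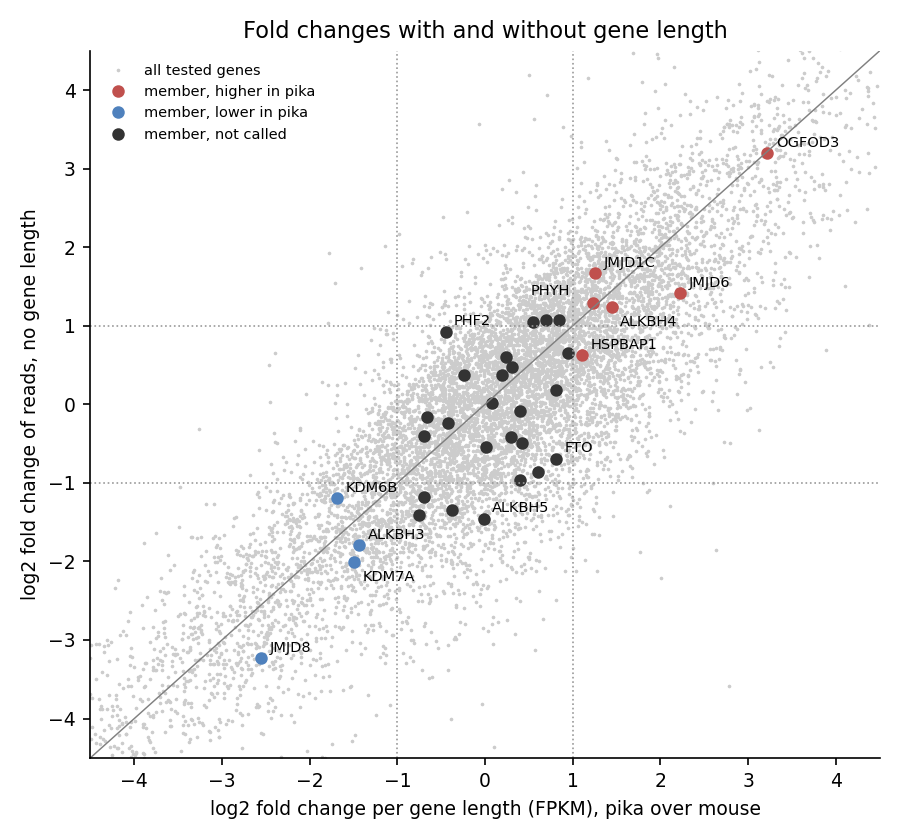
Log2 fold change, pika over mouse, with gene length (horizontal axis) and without it (vertical axis), for each tested member (large points, coloured by call with gene length) over all tested genes (grey); dotted lines mark 2-fold. The 9 members that keep their call lie beyond the dotted lines on both axes, while FTO (0.81 and -0.69) and PHF2 (-0.45 and 0.93) are among the 9 whose sign turns. The vertical value of PHF2 rests on recovered reads that may be too low by a common factor.

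Promoter sequence was read for the mouse only, from RefSeq (GRCm38.p6), with 42 promoters of 33 members. The motif searched was ACGTG, a form of the core bound by hypoxia-inducible factors including Epas1. Other forms of that core, such as GCGTG, were not searched and are not in capitals below. The search covered both strands and the 250 bases before each promoter's listed start. For some promoters that start lies inside the gene's span. The motif ACGTG was found in 11 member promoters (26.2%) and in 16.6% of all 32851 promoters. The letters CACGTG, which contain the motif and are also the E-box bound by CLOCK and BMAL1, stood in 3 member promoters (7.14%) and in 6.02% of all promoters. A match is not a binding site, and a window with no match says only that these letters are not in it. Shown are the called members HSPBAP1, with the motif inside 2 copies of CACGTG, KDM7A, with a single copy, and JMJD8, with none, each 5′ to 3′ on the gene's strand with the match in capitals. They are at chr16:35770136-35770385 on the plus strand, chr6:39206774-39207023 on the minus strand and chr17:25828793-25829042 on the plus strand. The HSPBAP1 window lies inside the span of the gene (35769726 to 35828462), so its matches are not upstream of the outermost start.
Hspbap1: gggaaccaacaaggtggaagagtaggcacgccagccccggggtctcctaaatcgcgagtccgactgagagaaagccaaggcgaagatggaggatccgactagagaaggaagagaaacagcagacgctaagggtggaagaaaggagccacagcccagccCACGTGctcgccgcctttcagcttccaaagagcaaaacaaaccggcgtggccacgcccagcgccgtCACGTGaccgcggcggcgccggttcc
Kdm7a: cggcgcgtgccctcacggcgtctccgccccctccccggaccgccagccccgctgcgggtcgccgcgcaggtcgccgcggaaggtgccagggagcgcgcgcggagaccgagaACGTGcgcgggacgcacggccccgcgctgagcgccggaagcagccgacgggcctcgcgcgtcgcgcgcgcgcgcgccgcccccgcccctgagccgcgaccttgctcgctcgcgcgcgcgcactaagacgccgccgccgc
Jmjd8: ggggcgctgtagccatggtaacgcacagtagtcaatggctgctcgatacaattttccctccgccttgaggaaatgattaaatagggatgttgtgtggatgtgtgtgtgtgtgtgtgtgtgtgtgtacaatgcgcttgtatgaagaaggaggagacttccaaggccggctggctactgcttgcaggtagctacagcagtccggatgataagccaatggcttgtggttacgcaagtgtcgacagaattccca
HSPBAP1 was higher in pika while KDM7A and JMJD8 were lower, as given above.

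Lists of related genes were described beside the members, by the same call rule and against the same 52.2% of all tested genes. Of the related genes named below, P3H2, SUV39H2 and PEX7 reached the minimum for testing only in pika, and MGMT only in mouse. Each was thus tested through the species where it was high, and its call or p is not separate support for the difference. Among the other 2-oxoglutarate oxygenases, those of HIF, collagen and similar substrates, 4 of 18 were higher, 2 lower and 12 not called. P3H2, a collagen prolyl hydroxylase, averaged 70.9 ± 2.11 in pika and 3.77 ± 1.16 in mouse (difference on the log2 scale 3.94, limma adjusted p = 1.5e-08), and HIF1AN, the asparaginyl hydroxylase of HIF, averaged 130.2 ± 2.24 in pika and 37.0 ± 1.16 in mouse (1.79, but 0.57 without gene length). PLOD3, a collagen lysyl hydroxylase, averaged 95.6 ± 0.436 in pika and 283 ± 10.1 in mouse (-1.56, but -0.27 without rescaling). Of the flavin-dependent demethylases and their corepressors, which need no 2-oxoglutarate, 3 of 5 were higher and 2 not called. KDM1A, the H3K4 demethylase of this kind, averaged 135.0 ± 0.927 in pika and 57.7 ± 2.16 in mouse (1.21).

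The writers of the marks that the members remove are set beside 28.7% of all tested genes called higher and 23.5% lower. Of 11 H3K4 methyltransferases and core subunits, 4 were higher and 7 not called, with the core subunits ASH2L (135.1 ± 2.69 in pika and 25.0 ± 1.98 in mouse) and DPY30 (206 ± 9.10 in pika and 43.3 ± 5.01 in mouse). Of 8 Polycomb methyltransferases and PRC2 subunits, 4 were higher and 4 not called, and EZH2, the methyltransferase opposite to KDM6B, averaged 110.3 ± 2.39 in pika and 12.9 ± 1.33 in mouse (limma adjusted p = 1.2e-09). EZH2 and KDM6B therefore differed between the species in opposite directions. Of 6 H3K9 methyltransferases, 2 were higher and 1 lower, led by SUV39H2 at 45.3 ± 2.56 in pika and 3.50 ± 1.05 in mouse. None of the 3 tested writers of H3K36 and H4K20 marks was called, with log2 fold changes of 0.61 for SETD2 and 0.48 for ASH1L. Without rescaling, which moved the median of all tested genes to 1.29, 10 of the H3K4 list and 7 of the Polycomb list were called higher, and with median-of-ratios or trimmed-mean scaling 1 gene of the Polycomb list was called lower.

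On DNA, 6 of 9 genes of DNA methylation and its readout were higher and 3 not called, beside TET enzymes without a call. DNMT1, the maintenance methyltransferase, averaged 179.7 ± 4.84 in pika and 51.2 ± 4.53 in mouse (difference on the log2 scale 1.79), and TDG, which excises the bases that TET enzymes oxidise, averaged 78.8 ± 2.63 in pika and 20.8 ± 1.97 in mouse (1.88). On RNA, 7 of 16 writers and readers of m6A were higher and 1 lower. WTAP, a subunit of the m6A writer, averaged 156 ± 8.55 in pika and 39.4 ± 1.40 in mouse (1.95), while METTL16 and METTL14 were at 2.64 and 2.47 with gene length but at 0.48 and 0.91 without it.

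Among 11 partners in tRNA modification and alkyl repair, 2 were higher and 2 lower. MGMT, which repairs alkylated guanine, was listed at 0 in each of the pika libraries, against an average of 39.9 ± 2.72 in mouse, and CTU2, a tRNA thiolation enzyme, averaged 27.3 ± 4.61 in pika and 140.1 ± 5.51 in mouse (-2.33). Of 15 enzymes that make or use 2-oxoglutarate, fumarate or 2-hydroxyglutarate, 3 were higher and 12 not called. SUCLG1, a subunit of succinate-CoA ligase, averaged 273 ± 6.62 in pika and 43.7 ± 1.64 in mouse (2.62). Of 9 genes of the carnitine and phytanic acid pathways, 2 were higher and 2 lower. PEX7, which imports PHYH into peroxisomes, averaged 24.6 ± 3.01 in pika and 4.67 ± 0.828 in mouse (2.18, but 0.32 without gene length), and CPT1A, the carnitine palmitoyltransferase of the outer mitochondrial membrane, averaged 4.39 ± 0.402 in pika and 93.9 ± 2.23 in mouse (-4.14).

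**Figure D5:**
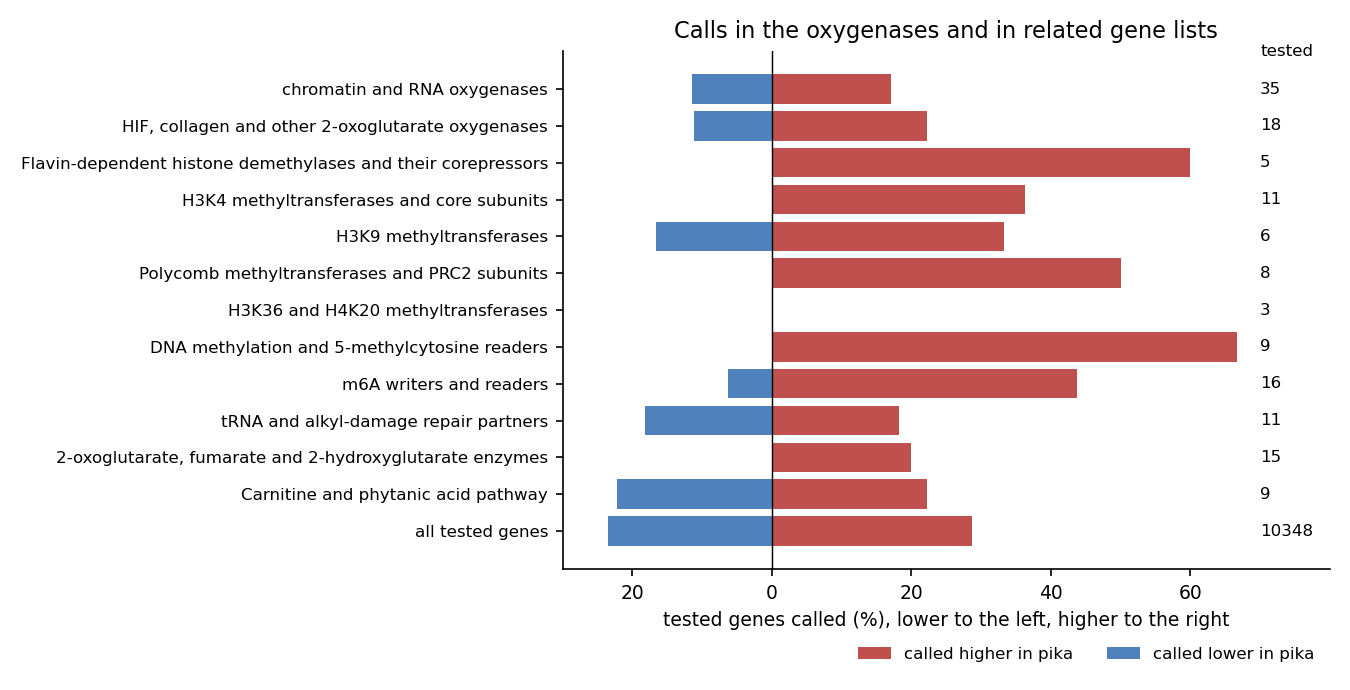
Percent of the tested genes of each list called higher in pika (bars to the right) or lower (bars to the left), for the members, 11 lists of related genes and all tested genes, with the number tested at the right. In all 28.6% of the members were called, against 66.7% of the DNA methylation list and 52.2% of all tested genes.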

How the data were processed

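RNA-seq libraries of pika and mouse fibroblasts were compared, 3 per species. The authors deposited 1 FPKM value per gene and library. The submitters' processing notes list STAR 2.6.1a, featureCounts, edgeR 3.28.1 and CASAVA 1.9, with GRCm38 as the build. The annotation of each species and the strand setting are not given in the sources used here, and neither is the genome used for pika.

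Pika rows were joined to mouse identifiers by upper-cased symbol, through a table of mouse gene names that matched 49326 of 49585 mouse rows. The 14418 shared genes held 87.1% of the deposited pika FPKM and 37.0% to 38.3% of the mouse FPKM, and each library was rescaled so that they summed to 1000000. Under R 4.3.3, limma 3.58.1 with its trend option was fitted to log2(value + 1), with 2-sided tests and Benjamini-Hochberg adjustment over 10348 genes, in scripts run with Python 3.11.15. The steps between the deposited FPKM values gave back library totals, whole reads per gene and model lengths, within 0.002 reads. These reads made up 95.7% to 96.4% of the totals. For some genes reads and length may both be too low by 1 common factor. The files hold FPKM and not counts, so the planned fits with edgeR and DESeq2 were not run, and limma-voom on the recovered reads was added after seeing the data. Replicates of a species were compared on these reads, and no library was a copy of another. The mean chi-square per gene was between 1.35 and 1.54 in pika and between 1.16 and 1.24 in mouse, where sampling alone gives about 1. Such values cannot tell separate cultures from repeated sequencing of the same culture or RNA.

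The members and the lists of related genes were chosen with earlier results of these data known. Every member was named. From each related list up to 4 called genes with the largest fold change were eligible, with up to 2 more, by level, for a list holding under 2 calls. The fit was also run on simulated data, and its outcome is not given here.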

Additional observations from a re-analysis of the deposited data

Results flagged for a closer look

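Signal was found for 2 members in rows that no comparison used. MINA, the older symbol of RIOX2, a histidyl hydroxylase of a ribosomal protein, had 17.6, 18.0 and 17.6 rescaled FPKM in pika (mean 17.7, 425 reads), beside 21.5, 20.8 and 24.7 under RIOX2 in mouse (mean 22.3, 158 reads). The pika rows carry the older symbol, so the pair was not joined and not tested. TMLHE, the first enzyme of carnitine synthesis, had 2.27, 6.46 and 3.71 in pika (mean 4.15, 54 reads), and no mouse row carried the symbol. RIOX1, a related hydroxylase of a ribosomal protein, had 12.3, 13.6 and 9.44 in mouse, from 73 reads, and no pika row carried the symbol. With 3 libraries per species, no test for a library far from the others was run.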

How the results depend on the processing

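The counts of 6 higher and 4 lower members were between 6 and 7 higher and at 4 lower when each library was left out in turn, ALKBH7 being the gene added without the third mouse library. Of the 10 calls, 6 (JMJD1C, JMJD6, ALKBH4, OGFOD3, PHYH and JMJD8) held in every alternative. Among them OGFOD3 passed the filter through pika alone, where it is high. The share of all genes' calls that held in every alternative is not given here, so the members cannot be set beside it. Without rescaling, 23 members were called higher and 1 lower, while the median of all tested genes was 1.29 instead of 0.21; the calls of KDM6B, KDM7A and ALKBH3 were lost there. With a filter at 5 FPKM 2 were lower, since KDM7A and ALKBH3 were not tested; without gene length 8 were lower, and without a fold minimum 16 were higher and 12 lower. Signs turned, and the cause was not tested, as follows. Without rescaling PHF2 was at 0.78, KDM3B at 0.98, KDM4A at 0.57, KDM4C at 0.53, KDM5B at 0.45, TET2 at 0.40, ALKBH1 at 0.73, ALKBH5 at 1.22 and ALKBH8 at 0.73. Without gene length KDM2A was at -0.49, PHF2 at 0.93, KDM3B at 0.37, KDM5A at -0.079, JMJD4 at -0.97, TET3 at -0.55, FTO at -0.69, OGFOD1 at -0.41 and ASPH at -0.86. With median-of-ratios scaling TET3 was at -0.15 and OGFOD2 at -0.0916, and with trimmed-mean (TMM) scaling at -0.0917 and -0.0311; with voom TET3 was at -0.0275. Leaving out 1 library put TET3 between -0.14 and 0.0933, and ALKBH5 between -0.035 and 0.02. The members' median minus that of all tested genes was 0.084, but -0.12 without gene length, 0.37 with no filter, 0.0107 with the filter at 5, 0.0305 with a pseudocount of 5 and 0.0441 without rescaling; leaving out 1 library put it between 0.0237 (without the first mouse library) and 0.114 (without the third), so its size rests on single libraries and settings. Same-numbered libraries of the species did not deviate together (correlations of -0.00907, 0.0483 and 0.00925), so the numbers do not pair them; a fit with the replicate block gave 6 higher and 4 lower members. The planned edgeR and DESeq2 fits were not run. Depth limits OGFOD3, with 12 mouse reads, ALKBH7, with 40, and KDM8, with 45.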
